A study of Mus musculus with 6 samples.

Results

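Meg3 (Entrez Gene 17263) and Rian (Entrez Gene 75745) are neighbouring noncoding RNA genes of the imprinted Dlk1-Dio3 locus on mouse chromosome 12. They are 2 of the 18193 genes that the array reads, and of its 45037 noncontrol probe sets 15 carry 1 of these symbols alone in the array annotation: 11 for Meg3 and 4 for Rian. Both genes were chosen by their level in Lower-SP relative to Upper-SP on these same arrays, so their values in that contrast are given as a description, with no test. Lower-SP and Upper-SP are hematopoietic stem cells from the lower and the upper part of the side population, in which cells are sorted for their efflux of a DNA dye. The mice were C57Bl/6 (CD45.1) males aged 10 weeks, and marrow cells were sorted as Lineage-negative, Sca-1-positive and c-Kit-positive, and each fraction was measured on 3 arrays, each from its own pool of mice sorted on a separate day. RNA was amplified by 2 rounds of in vitro transcription. Values are log2 expression values on 1 scale for all 6 arrays, differences are Lower-SP minus Upper-SP, means are given ± SD (n = 3 arrays per fraction), and precision is limited by the small number of arrays.

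At an imprinted locus only the copy from 1 parent is active. Meg3, also known as Gtl2, Rian and Mirg are made from the maternal copy of this locus and are read in the same direction. All carry microRNAs within them, and in the RefSeq records used here only Rian holds small nucleolar RNA genes. The protein genes Dlk1, Rtl1 and Dio3 are made from the paternal copy. In mouse hematopoietic stem cells the maternal noncoding RNAs are known as a mark of long-term stem cells, and deletion of the locus is known to raise PI3K and mTOR signalling and to exhaust these cells.

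The stem cell label was checked against 10 annotated stem cell markers, all of which were bright enough to test; 0 were called higher and 3 lower in Lower-SP, Kit, Robo4 (-1.33) and Cd27 (-0.96), at the brightest probe sets. Of 3 tested progenitor markers, the receptor gene Flt3 (-2.22, limma adjusted p = 0.0025) and Cd34 (-1.41, adjusted p = 0.0030) were lower. Procr, the endothelial protein C receptor, read 13.68 ± 0.14 in Lower-SP and 13.73 ± 0.11 in Upper-SP, and Kit 8.02 ± 0.18 and 8.94 ± 0.25. Markers of other blood cells differed between arrays. The 5 tested megakaryocyte markers averaged 7.38, 7.45 and 7.95 on Lower-SP arrays 1, 2 and 3, against 7.30, 7.21 and 6.86 on the Upper-SP arrays, and 1 was called higher. The 7 tested neutrophil markers averaged 10.2, 9.60 and 5.96 on Lower-SP arrays 1, 2 and 3, against 5.47, 5.79 and 4.30 on the Upper-SP arrays, and 4 of them passed the test as higher, while Elane, a granule protease of early neutrophils, read 2.13 to 2.21 on all arrays. Array 3 of Lower-SP was not free of these transcripts: Chil3 read 4.94 there, against 3.16 to 3.25 in Upper-SP. Plasma cell transcripts went the other way, with Igha, the heavy chain of immunoglobulin A, at 9.40, 8.99 and 4.70 in Lower-SP, against 12.43, 12.60 and 11.31 in Upper-SP (-4.42, limma adjusted p = 0.024, and 3 of its probe sets called lower), and Lower-SP array 3 the lowest. Of 11 stromal and 7 endothelial markers, cells in which Meg3 can be abundant, 5 and 2 were tested. The stromal ones averaged 4.52 to 5.03 in Lower-SP and 5.31 to 5.53 in Upper-SP and the endothelial ones 5.31 to 5.46 and 5.50 to 6.63. Their median differences were -0.23 and -0.73, beside -0.24 over all tested genes, and only 1 stromal marker was called, as lower. Whether such cells added to the Meg3 signal was not tested. The collagen gene Col1a1 (highest value 3.02), the leptin receptor Lepr (2.70) and the endothelial cadherin Cdh5 (2.34) were under log2 4, the level required for testing, on every array. Y-linked genes gave no uniform picture of the male label: Eif2s3y read 10.0 to 10.6 on all 6 arrays, the 3 Kdm5d probe sets stayed under log2 4 on all arrays, and Uty at 1457582_at read 6.35, 6.21 and 4.93 in Lower-SP and 4.57, 4.47 and 4.88 in Upper-SP. Xist, the RNA that coats the inactive X chromosome of females, read 2.54, 8.39 and 9.49 in Lower-SP and 11.4, 11.8 and 10.5 in Upper-SP at its brightest probe set, so 5 of the arrays held an RNA that male cells are not known to make in quantity. Values without the single arrays are therefore given for the members. In such bulk samples, fewer cells carrying a transcript and less of it per cell cannot be told apart.

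The stretches at the RefSeq starts of both genes, called promoters here, are shown as a description. Whether the Rian start opens a transcript of its own in these cells was not tested. The stretches run from 250 bases before to 50 bases after the RefSeq start, and capitals mark matches on either strand to 4 motifs. The first, TGACGTCA, is the cyclic AMP response element, known to be bound by factors that respond to this messenger. The second, CCAAT, is bound by the nuclear factor Y complex in many promoters. The other two are TATATAA, a form of the box at which the transcription machinery can assemble, and, for the zinc finger protein Zfp57, which keeps imprints in mouse embryos, the methylated form of TGCCGC.
Meg3 promoter (GRCm38.p6 chr12:109540746-109541045, + strand): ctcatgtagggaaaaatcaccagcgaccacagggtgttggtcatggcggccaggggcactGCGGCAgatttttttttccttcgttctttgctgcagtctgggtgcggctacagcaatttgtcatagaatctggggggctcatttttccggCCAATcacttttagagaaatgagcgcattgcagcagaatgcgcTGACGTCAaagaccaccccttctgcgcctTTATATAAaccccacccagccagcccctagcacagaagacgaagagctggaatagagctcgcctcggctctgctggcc
Rian promoter (GRCm38.p6 chr12:109603695-109603994, + strand): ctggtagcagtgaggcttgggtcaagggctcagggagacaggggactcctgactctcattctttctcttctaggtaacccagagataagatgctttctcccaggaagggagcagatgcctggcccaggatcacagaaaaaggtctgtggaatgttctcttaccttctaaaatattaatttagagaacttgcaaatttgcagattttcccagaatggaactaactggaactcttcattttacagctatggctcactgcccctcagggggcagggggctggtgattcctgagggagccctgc
The Meg3 promoter held 1 cyclic AMP response element, 1 CCAAT box, 2 overlapping TATATAA matches that share their letters on opposite strands, 1 TGCCGC and 13 CpG dinucleotides. The Rian promoter, like that at a second RefSeq start of Meg3, held none of the 4 motifs, and it had 0 CpG dinucleotides, against 1 at the second Meg3 start. Over 32851 RefSeq promoters of the same length, 1.79% held TGACGTCA, 37.4% CCAAT, 3.24% TATATAA and 11.6% TGCCGC, and the median number of CpG dinucleotides was 7. These matches are a description of letters and were not tied to binding.

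The microRNAs placed by RefSeq inside the 2 transcription units are shown because the probe sets read their host transcripts. There are 3 mature microRNAs from 2 hairpins in Meg3 and 6 from 3 hairpins in Rian, which also holds 11 small nucleolar RNA genes, and 19 from 10 hairpins lie in Mirg. Capitals mark the seed, bases 2 to 8.
mmu-miR-1906 (in Meg3, GRCm38.p6 chr12:109544588-109544609, + strand): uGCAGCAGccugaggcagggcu
mmu-miR-770-5p (in Meg3, GRCm38.p6 chr12:109563710-109563731, + strand): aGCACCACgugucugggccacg
mmu-miR-770-3p (in Meg3, GRCm38.p6 chr12:109563744-109563765, + strand): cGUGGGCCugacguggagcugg
mmu-miR-341-5p (in Rian, GRCm38.p6 chr12:109611521-109611541, + strand): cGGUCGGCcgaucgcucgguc
mmu-miR-341-3p (in Rian, GRCm38.p6 chr12:109611556-109611576, + strand): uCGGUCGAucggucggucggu
mmu-miR-1188-5p (in Rian, GRCm38.p6 chr12:109611841-109611861, + strand): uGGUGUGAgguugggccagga
mmu-miR-1188-3p (in Rian, GRCm38.p6 chr12:109611877-109611901, + strand): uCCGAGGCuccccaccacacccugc
mmu-miR-370-5p (in Rian, GRCm38.p6 chr12:109618270-109618289, + strand): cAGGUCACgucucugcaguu
mmu-miR-370-3p (in Rian, GRCm38.p6 chr12:109618305-109618326, + strand): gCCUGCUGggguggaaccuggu
No seed is shared among these 9. No single-symbol probe set of the array is annotated to any of their hairpins, so their levels were not measured here.

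Meg3 did not give 1 answer: 2 of its probe sets stood far higher in Lower-SP, the other 6 tested ones lay within 1 log2 unit of Upper-SP on average, and the 3 untested ones were near background on at least 5 arrays. Of the 15 member probe sets, 9 were above log2 4 on at least 3 arrays and so were tested across the array, 8 of Meg3 and 1 of Rian. In 4 of the 9 every Lower-SP array lay above every Upper-SP array, 3 of Meg3 and 1 of Rian; among all 19613 tested probe sets the groups did not overlap in 46.1%, and in 18.2% with Lower-SP higher. Since this contrast chose the genes, nothing is read from that count. The sources used here do not place the probes of each set along the transcripts, so the Meg3 probe sets with the widest gap come first and the others follow from bright to dim. Signal also depends on the probes, so that order says nothing of RNA amounts.

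The probe set 1452906_at, designed from the expressed sequence BE990468, read 6.77, 8.31 and 9.03 in Lower-SP, against 4.99, 4.72 and 4.85 in Upper-SP. All 3 Lower-SP arrays were higher, with array 3 the highest and array 1 the lowest of them, while the Upper-SP arrays lay close together. The means were 8.04 ± 1.16 in Lower-SP and 4.86 ± 0.13 in Upper-SP, a difference of 3.18 (SE 0.52, 9.06-fold).

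The probe set 1429257_at, from AU067739, read 6.13, 6.11 and 7.76 in Lower-SP, against 3.92, 3.95 and 3.97 in Upper-SP. Its Upper-SP arrays were all just under log2 4, and Lower-SP array 3 again stood above the other two. The difference was 2.72 (SE 0.44, 6.67 ± 0.95 in Lower-SP and 3.95 ± 0.02 in Upper-SP), or at least 6.35-fold with the Upper-SP arrays set to 4. The second probe set from AU067739, 1429256_at, stayed between 2.12 and 2.36 on all arrays.

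**Figure D1:**
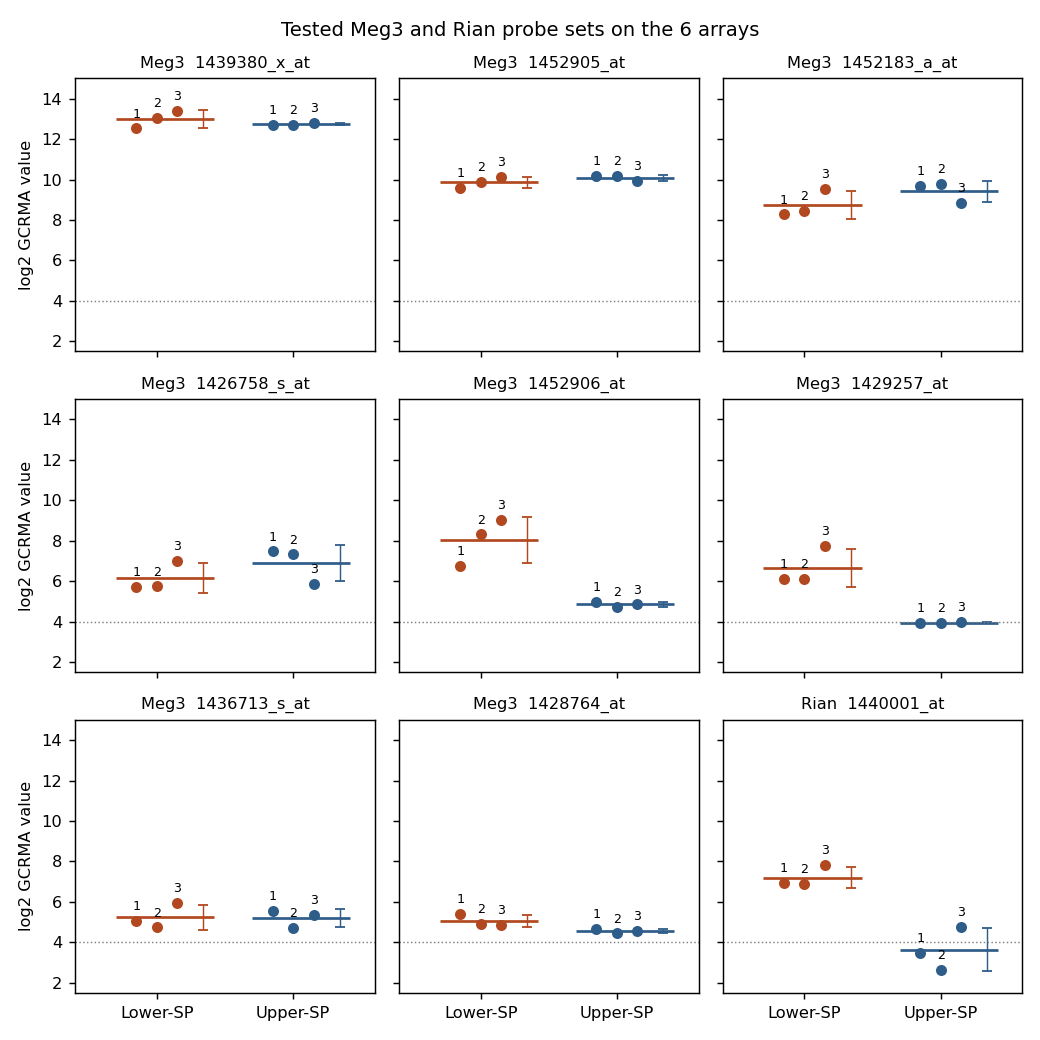
Log2 GCRMA values (y axis) of the 9 tested Meg3 and Rian probe sets on the Lower-SP (left, orange) and Upper-SP (right, blue) arrays; points are single arrays with their replicate number, horizontal lines are means, error bars are SD (n = 3) and the dotted line is log2 4. The 3 Lower-SP points lie well above the 3 Upper-SP points at 1452906_at, 1429257_at and 1440001_at, whereas at 1452905_at and 1452183_a_at they overlap.

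The brightest Meg3 probe set, 1439380_x_at, read 12.53, 13.04 and 13.40 in Lower-SP, against 12.71, 12.70 and 12.81 in Upper-SP. The fractions overlapped, and only Lower-SP array 1 lay below the Upper-SP arrays. The difference was 0.25 (SE 0.20), and its name marks a set in which some probes may bind other transcripts too. The next, 1452905_at, from AV015833, read 9.60, 9.86 and 10.15 in Lower-SP, against 10.17, 10.19 and 9.93 in Upper-SP, a difference of -0.23 (SE 0.18).

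The 2 probe sets from Y13832 followed each other across the arrays. At 1452183_a_at the values were 8.28, 8.45 and 9.54 in Lower-SP and 9.68, 9.77 and 8.83 in Upper-SP (difference -0.67, SE 0.38). At 1426758_s_at they were 5.73, 5.74 and 6.99 in Lower-SP and 7.47, 7.32 and 5.86 in Upper-SP (-0.73, SE 0.51). At both, Lower-SP array 3 lay within the range of the Upper-SP arrays, and Upper-SP array 3 was the lowest Upper-SP array and lay between Lower-SP arrays 2 and 3. With Lower-SP arrays 1 and 2 left out, the differences of these 2 probe sets were 0.11 and 0.11, and that of 1452905_at was 0.05.

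The remaining tested Meg3 probe sets were dimmer. At 1428764_at, also from AV015833, the values were 5.39, 4.90 and 4.87 in Lower-SP and 4.68, 4.44 and 4.57 in Upper-SP, a small gap without overlap (0.49, SE 0.23). At 1436713_s_at, from BM119226, they were 5.05, 4.74 and 5.94 in Lower-SP and 5.57, 4.71 and 5.35 in Upper-SP (0.03, SE 0.37), and the fractions lay across each other. The third probe set from AV015833, 1428765_at, was near background on 5 arrays (2.26 to 2.32) and read 5.48 on Lower-SP array 3 alone. Finally, 1436057_at stayed between 2.26 and 2.62. Probe sets designed from 1 expressed sequence thus differed in their pattern, both for AV015833 (-0.23, 0.49 and a signal on 1 array) and for AU067739.

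Rian was read well by 1 probe set only. At 1440001_at, from BM116147, the values were 6.93, 6.88 and 7.81 in Lower-SP, against 3.47, 2.65 and 4.76 in Upper-SP. The fractions were widely apart, and array 3 was the highest within each. The means were 7.21 ± 0.53 in Lower-SP and 3.63 ± 1.07 in Upper-SP, a difference of 3.58 (SE 0.53), or at least 7.74-fold with Upper-SP values under 4 set to 4.

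The other Rian probe sets were near background. Lower-SP array 1 alone stood out at 1428055_at, from AB076245, with 4.49, 3.21 and 3.23 in Lower-SP and 3.17, 3.19 and 2.91 in Upper-SP, and at 1427580_a_at, with 3.87, 2.45 and 2.47 in Lower-SP and 2.33, 2.33 and 2.44 in Upper-SP. The fourth, 1452899_at, stayed between 2.42 and 2.47. At 1440001_at, by contrast, all 3 Lower-SP arrays were high.

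**Figure D2:**
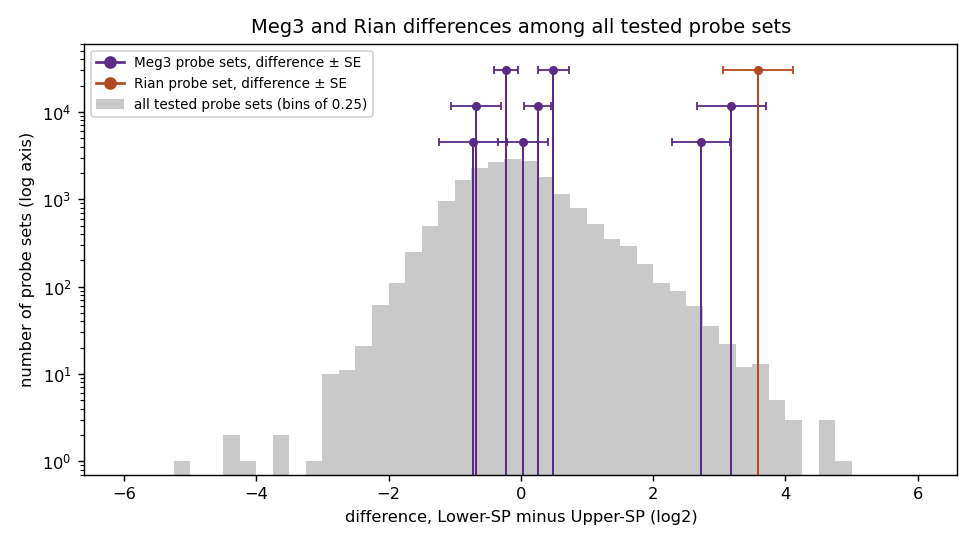
Number of tested probe sets (grey, log y axis, bins of 0.25) by their difference, Lower-SP minus Upper-SP (x axis, log2), with the 8 tested Meg3 probe sets (purple) and the Rian probe set (orange) as vertical lines topped by a point with its SE; the height of a point has no meaning. The differences 2.72, 3.18 and 3.58 stand apart from the other 6 member probe sets, which lie between -0.73 and 0.49.

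The differences held their size without single arrays at the 3 high probe sets. With each array left out in turn they ranged from 2.68 to 3.81 at 1452906_at, from 2.17 to 3.0 at 1429257_at and from 3.09 to 4.15 at 1440001_at. Without Lower-SP array 1, the array with almost no Xist signal, they were 3.81, 2.99 and 3.72. With Lower-SP arrays 1 and 2, where neutrophil transcripts were highest, left out, Lower-SP array 3 alone lay 4.17, 3.81 and 4.19 above the Upper-SP mean. Array 3 was the highest of the Lower-SP arrays at 8 of the 9 tested members, as it was at 43.2% of all tested probe sets. Quantile normalization, median centring and cyclic loess gave 3.14 to 3.26 at 1452906_at, 2.68 to 2.74 at 1429257_at and 3.54 to 3.61 at 1440001_at. The difference of 1436713_s_at, 0.03, became -0.01 with median centring, and it was the only tested member whose sign differed between these scalings.

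The genes whose profile over the 6 arrays came closest to the mean of the brightest Meg3 and Rian probe sets were Cul5, a cullin of ubiquitin ligases, with a root mean square difference of 0.15 after centring each profile on its mean, Cemip2, a hyaluronidase (0.16), and the casein kinase Csnk1g3 (0.16). They were followed by the ubiquitin-conjugating enzyme gene Ube2h (0.17), Dock2, a Rac activator of blood cells (0.18), the helicase gene Ighmbp2 (0.18), the sorting nexin Snx6 (0.21) and the kinase Braf (0.21). The median over all tested single-symbol probe sets was 1.16. The mean profile used here had a difference of 1.92, between 0.25 at Meg3 1439380_x_at and 3.58 at Rian 1440001_at. Closeness to it is therefore not likeness to either gene. When profiles were centred within each fraction instead, the closest were the RNA helicase Ddx6 (0.04), the mitochondrial ribosomal protein gene Mrpl11 (0.05), Whamm (0.06) and Commd2 (0.07), against a median of 0.48. Compared with the mean of the 3 high probe sets, a comparison chosen after their values were seen, the closest were the caveolar protein gene Cavin2 (0.22), the exocyst gene Exoc6 (0.31), Rptor, the raptor subunit of mTOR complex 1 (0.31), and Mast2 (0.40), and then Ccdc120 (0.41), the imprinted gene Plagl1 (0.41), Kmt5b (0.43) and Riok1 (0.43). Each gene is given at its closest probe set only. In Upper-SP those of Cavin2, Exoc6, Rptor and Mast2 read 2.8 to 2.9, 2.7 to 2.8, 3.1 to 3.2 and 2.9 to 3.7. These were under log2 4 on every Upper-SP array, so they were tested through their Lower-SP values, and their Upper-SP levels are near background. The 3 high probe sets differed from each other by 0.51 to 0.80 on this measure.

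**Figure D3:**
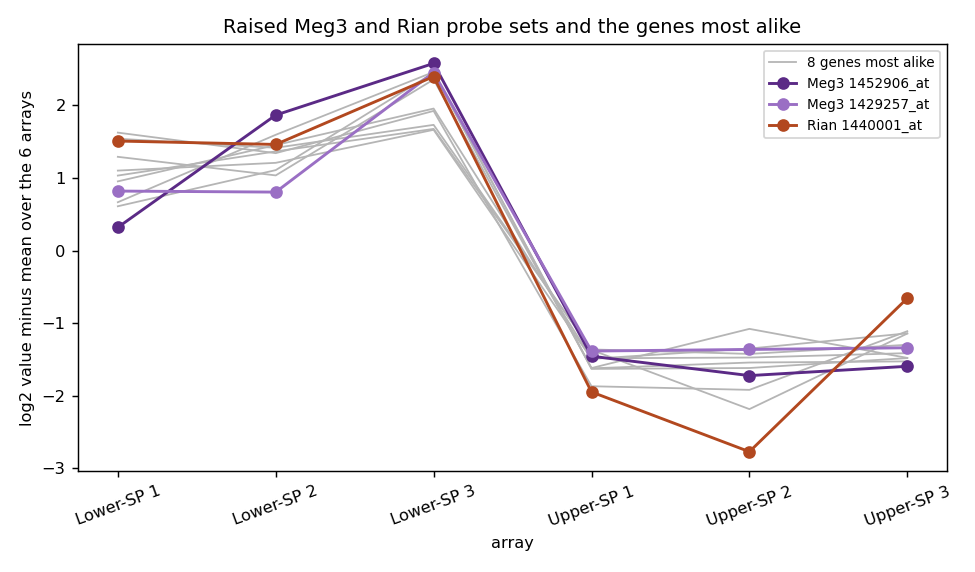
Log2 values of the 3 high Meg3 and Rian probe sets (coloured points) and of the 8 genes most like their mean (grey lines), each minus its own mean over the 6 arrays (y axis), by array (x axis); lines only link the points of 1 probe set. All profiles are above their mean on the Lower-SP arrays and below it on the Upper-SP arrays, and Rian has its lowest value on Upper-SP array 2.

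The rest of the imprinted locus gave no signal to compare. Dlk1, a paternally expressed surface protein related to Notch ligands, read 2.86 to 3.13 in Lower-SP and 2.36 to 3.57 in Upper-SP over its 2 probe sets. Mirg, the noncoding RNA beyond Rian, read 2.24 to 2.32 in Lower-SP and 2.19 to 2.29 in Upper-SP, and Dio3os, the antisense partner of the deiodinase gene Dio3, 2.29 to 2.31 and 2.26 to 2.31. None of these reached log2 4 on any array, so 0 were tested; Rtl1, Dio3 and Begain were not analysed here.

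Genes flanking the locus changed in both directions. Of 12 tested genes 2 were higher and 4 lower, with a median difference of -0.51, beside 7.05% higher and 20.7% lower among all 9460 tested genes and their median of -0.24 (limma, adjusted p under 0.05, as in the following lists). Evl, an actin regulator, fell by 1.36 (SE 0.21, 5.20 ± 0.10 in Lower-SP and 6.56 ± 0.14 in Upper-SP, adjusted p = 0.0054) at its brightest probe set, but its second probe set passed in the opposite direction (1.78). The endosomal gene Tecpr2 (-1.26), the phosphatase subunit Ppp2r5c (-1.04) and the dynein heavy chain Dync1h1 (-0.74 and -1.35 at its 2 probe sets) fell, and Wdr20 (1.08) and the chaperone Hsp90aa1 (0.37) rose. For Ppp2r5c only 1 of 6 tested probe sets was called, and the others differed by -0.73 to -0.04. Only 1 of 3 was called for Hsp90aa1 (0.08 and 0.41 at the others) and 1 of 2 for Wdr20 (0.28 at the other). Yy1, a zinc finger factor, differed by 0.21 (adjusted p = 0.34), and the tryptophanyl-tRNA synthetase gene Wars (-0.71), Zfp839 (-0.62), Wdr25 (-0.40), the cell cycle gene Cinp (-0.37) and the mitochondrial carrier Slc25a29 (-0.16) did not pass. Without Upper-SP array 1, only 1 of these genes was called, and with each gene read at its probe set of smallest p 3 were higher and 3 lower, Evl having turned.

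Keepers and erasers of imprints were mostly higher where they were called. Of 19 tested genes 7 were higher and 2 lower, and the median was 0.25. Jarid2, an accessory subunit of the Polycomb complex PRC2, rose by 1.78 (SE 0.18, 10.1 ± 0.1 in Lower-SP and 8.29 ± 0.26 in Upper-SP, adjusted p = 0.0018), and the PRC2 core subunit Suz12 by 1.13. The retinoblastoma-binding genes Arid4b (1.79) and Arid4a (0.98), which are known to act in imprinting, the methylcytosine dioxygenase Tet2 (1.15), the insulator protein Ctcf (0.66) and the DNA methyltransferase Dnmt3a (1.25) also rose, although another probe set of Dnmt3a was called lower (-1.09) and another of Tet2 differed by -0.74. Trim28 (-0.45), the corepressor that works with Zfp57, and the imprint-keeping zinc finger gene Zfp445 (-0.42) fell. At these brightest probe sets both calls were lost with cyclic loess. The other tested probe set of each, -0.63 for Trim28 and -1.12 for Zfp445, was called lower and stayed so with cyclic loess. The chromatin remodeller Atrx (-0.21), the maintenance methyltransferase Dnmt1 (0.25) and Dnmt3b (0.19) did not pass at their brightest probe sets; other probe sets of Atrx were called up to 2.07 higher and 1 of Dnmt3b 0.67 higher. The count of 9 became 5 without Upper-SP array 1, 5 without Upper-SP array 2, and 4 without Lower-SP arrays 1 and 2 together.

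Other imprinted genes did not share 1 direction. Among 11 tested genes known to be made from the paternal copy, 2 were higher and 2 lower, with a median of -0.25. Plagl1, a zinc finger factor of the imprinted gene network, read 8.03, 8.36 and 8.67 in Lower-SP, against 5.63, 5.57 and 5.70 in Upper-SP, and rose by 2.72 (SE 0.23, 6.59-fold, adjusted p = 0.0011), with 1.65 at its second probe set. Sgce, a sarcoglycan, fell by 1.43 and the noncoding RNA Kcnq1ot1 by 0.87, while the translation regulator Impact was called higher at its brightest probe set (0.92) and lower at another (-1.15). Ndn, a growth suppressor, read 11.1 ± 0.7 in Lower-SP and 11.3 ± 0.1 in Upper-SP and did not pass, like Airn (-0.12) and Zdbf2 (-0.26). The count of 4 became 2 without Lower-SP array 2, without Upper-SP array 1 or without Upper-SP array 2, and 2 without Lower-SP arrays 1 and 2 together.

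Among 18 tested genes listed as imprinted with the maternal copy active, 2 were higher and 5 lower, with a median of -0.25. Which copy was read in these cells was not measured, for this list or for the paternal one. The tetraspanins Tspan32 (-1.04) and Cd81 (-0.67), the growth restrainer Phlda2 (-1.03), the phosphatase regulator Ppp1r9a (-0.61) and the G protein subunit Gnas (-0.42) fell. The other tested probe sets of Gnas differed by 0.71 and 0.28, neither called, and those of Ppp1r9a by -0.56 (called), -0.48 and 0.62. At the brightest probe sets both calls were lost with cyclic loess and quantile normalization, and that of Gnas with median centring too. The Phlda2 call was lost with cyclic loess, and when any single array except Lower-SP array 3 was left out. The ubiquitin ligase Ube3a (0.68) rose, and the vesicle-tethering gene Trappc9 was called higher at its brightest probe set (1.41) and lower at the other (-2.03). H13 (-0.21, with another probe set called 0.94 lower), Blcap (-0.28) and Tssc4 (0.05) did not pass. These calls rest on few arrays: the count of 7 became 0 without Upper-SP array 1, 1 without Upper-SP array 2, 4 without Lower-SP array 1, 3 without Lower-SP array 2, 2 without Lower-SP arrays 1 and 2 together and 4 with cyclic loess.

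**Figure D4:**
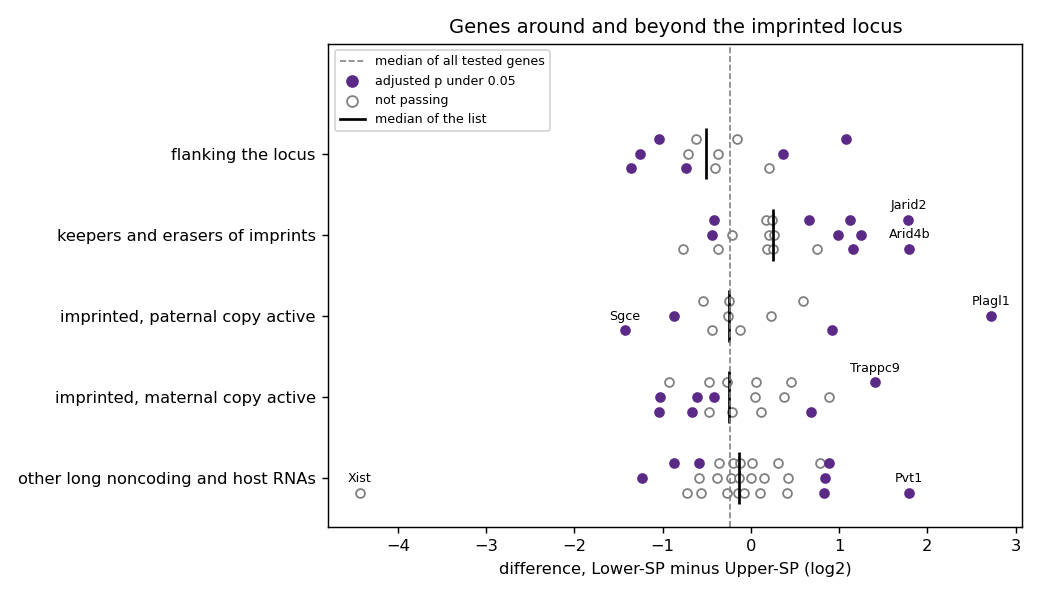
Difference, Lower-SP minus Upper-SP (x axis, log2), of each tested gene at its brightest probe set in 5 lists (rows); filled points passed the test (adjusted p under 0.05), open points did not, black bars are list medians and the dashed line is the median of all tested genes, -0.24. Plagl1 is the highest point at 2.72, and the keepers and erasers of imprints have their median at 0.25.

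Other long noncoding RNAs and small RNA hosts were split too. The test called 4 of 28 higher and 3 lower, and their median of -0.13 was near 0 (0.002) with cyclic loess. Xist, also in this list, did not pass at its brightest probe set (-4.43, limma adjusted p = 0.070). It was called lower at its 2 other probe sets (-5.21 and -1.76). Malat1, an abundant nuclear RNA, was called higher at all 6 of its tested probe sets, by 0.79 to 1.88. At the brightest it read 15.6 ± 0.2 in Lower-SP and 14.7 ± 0.2 in Upper-SP (0.84, SE 0.14, adjusted p = 0.0059). Pvt1, a neighbour of Myc, rose by 1.79, and Lncpint (0.89) and the snoRNA host Snhg7 (0.82) also rose, although the Snhg7 call was lost with median centring. The snoRNA host Snhg4 (-1.23) fell, as did Kcnq1ot1 and Oip5os1 (-0.59) at their brightest probe sets. The other tested probe sets of Kcnq1ot1 and Oip5os1 went in both directions and were not called. The Oip5os1 call was lost with cyclic loess. Gas5 (-0.08), Snhg8 (-0.14) and Snhg1 (0.42), hosts of small nucleolar RNAs as Rian is, did not pass. The count of 7 became 2 without Lower-SP array 2, without Upper-SP array 1 or without Upper-SP array 2, and 2 without Lower-SP arrays 1 and 2 together, where the Malat1 call at its brightest probe set was lost. Neutrophil and plasma cell transcripts and Xist differ between the same arrays, and their part in these lists was not tested.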

How the data were processed

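The file holds deposited log2 values of an Affymetrix mouse array, which the authors scanned with GCOS 1.0 and summarized with GCRMA, per the submitters' processing notes; this method removes background with the help of probe sequences and puts all arrays on 1 scale. Further parameters and a genome build are not given in the sources used here. Genes were named with the annotation table of the array (34945 probe sets with 1 symbol, 34741 of them matched by Entrez ID to RefSeq gene records); sequences are from RefSeq, build GRCm38.p6.

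Probe sets above log2 4 on at least 3 of 6 arrays were tested (19613) in R 4.3.3 with limma 3.58.1 (two-sided moderated test with an intensity trend, 4 residual degrees of freedom), with Benjamini-Hochberg adjustment over all of them and a threshold of 0.05. Each gene stands by its brightest tested probe set. Fold bounds set values under 4 to 4 in the dim fraction. The procedure was also tested on simulated data with 200 of 19613 probe sets changed. It called 18% of changes of log2 1 and 71% of changes of log2 2, and 9.2% of its calls were false, more than the threshold of 0.05 allows for on average. In the data 28.1% of the tested probe sets were called, a far larger share than was changed in the simulation. The adjustment depends on that share, so these rates do not give those of the real fit. A gene that did not pass may still differ.

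The members, the 6 gene lists and the tests were chosen with earlier results of these data known. Named genes are all Meg3 and Rian probe sets, the genes of and around the locus, up to 6 called genes of each list by size and 3 not called by level (Ctcf, Trim28, Zfp445, Gnas and Oip5os1, which complete the called genes, were added after their values were seen), and the genes most alike in profile. Same-numbered arrays did not deviate together (r from -0.051 to -0.023 between their deviations from the group means), so replicate numbers were not used to pair them. Alternatives were other scalings, filters, moderation, probe set choices, a block and arrays left out.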

Additional observations from a re-analysis of the deposited data

How the results depend on the processing

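Of 219 alternative values, 182 stayed within the replicate SD (differences) or within 1.5 times (counts) and 37 moved; Evl, Impact and Trappc9 turned from 1 called direction to the other with each gene read at its probe set of smallest p, where flanking genes were 3 higher and 3 lower, paternal 1 and 3, and maternal 1 and 7. Why these values moved was not tested, beyond the fewer arrays in some fits. Called probe sets numbered 5520, against 2931 with no filter, 2715 without Lower-SP arrays 1 and 2, and 1666 to 6397 with each array left out. With each array left out, counts ranged from 1 to 7 for flanking genes, 5 to 10 for keepers and erasers of imprints (4 without Lower-SP arrays 1 and 2), 2 to 5 for paternal, 0 to 7 for maternal and 2 to 9 for noncoding genes; the other genes of the locus were 0 throughout, since none was tested except with no filter, where 3 were tested and 0 called. Paternal, maternal and noncoding genes each gave 2 calls without Lower-SP arrays 1 and 2 and 2 with no filter. Maternal genes gave 4 with cyclic loess and 4 with no trend. With the replicate number as a block (replicate block), which uses up degrees of freedom, 4180 probe sets were called, and 4 maternal and 4 noncoding genes; the other lists gave 5, 8 and 3. The split of all called probe sets was 2090 higher and 3430 lower, against 2585 and 2430 with cyclic loess, which moved the median of all genes from -0.24 to -0.12. The difference of the brightest Meg3 probe set ran from 0.05 to 0.48 with each array left out, and was 0.66 without Lower-SP arrays 1 and 2 and 0.63 as the mean of all 8 tested probe sets; that of Rian ran from 3.09 to 4.15. Arrays of 3 per fraction and signals near log2 4 limit what the dim probe sets can show.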

Other observations

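Genes annotated as long noncoding RNAs were not raised as a class. Of 240 tested probe sets of 188 such genes, Meg3 and Rian left out, 24 (10.0%) were higher and 54 (22.5%) lower, with a median of -0.20. Of 15710 probe sets of protein-coding genes, 8.87% were higher and 18.3% lower, with a median of -0.18. With cyclic loess the noncoding probe sets had 29 higher and 42 lower, and without Lower-SP arrays 1 and 2, 15 higher and 28 lower. These classes were set after the values of the genes above were seen.

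Single probe sets of regulators not described above also differed between the fractions. Smchd1, a chromatin protein of the inactive X chromosome and of some imprinted genes, read 8.88 ± 0.36 in Lower-SP and 6.56 ± 0.25 in Upper-SP at 1442497_at, a difference of 2.32 (adjusted p = 0.0021), while its brightest probe set differed by 0.75 (adjusted p = 0.069). Tet1, a methylcytosine dioxygenase, read 4.66 ± 0.54 in Lower-SP and 6.54 ± 0.22 in Upper-SP at 1429448_s_at (-1.89, adjusted p = 0.0063), and differed by -0.77 (adjusted p = 0.16) at its brightest. Both were chosen after their values were seen.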
